A study of Homo sapiens with 24 samples.

Results

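Cystatins inhibit papain-like cysteine proteases such as the lysosomal cathepsins by occupying their active site cleft. Their RNA levels were examined in human colorectal cancer (CRC) cell lines with and without *CTNNB1*, the gene that codes for β-CATENIN. The 9 genes *CST1*, *CST2*, *CST3*, *CST4*, *CST5*, *CST6*, *CST7*, *CSTA* and *CSTB* were taken from the 58051 gene identifiers in the files, and all 9 were found. The family was chosen by the rise of *CST4* in HT29 knock-out clones. The HT29 values of *CST4* and of its near-identical copies *CST1* and *CST2* are therefore a description, and these 3 genes were tested in no contrast within HT29. β-CATENIN is the transcriptional effector of the WNT pathway. It binds TCF/LEF proteins on DNA, and its degradation is impaired in most CRC.

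The family falls into groups with different routes. *CST1*, *CST2* and *CST4* code for cystatins SN, SA and S, which are secreted in saliva and tears, and *CST5* codes for cystatin D of the same fluids. *CST3* codes for cystatin C, a secreted inhibitor made by nearly all cell types. *CST6* codes for cystatin E/M, which also inhibits legumain and takes part in the formation of the cornified envelope of the skin. *CST7* codes for cystatin F, which is best known from immune cells, where it regulates cathepsin C. *CSTA* and *CSTB* code for the intracellular stefins A and B, which lack a signal peptide.

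HT29, HCT116 and SW480 are established CRC cell lines. HT29 and SW480 carry *APC* mutations, whereas HCT116 carries an activating *CTNNB1* mutation. In knock-out (KO) clones exon 7 of *CTNNB1* had been deleted on both alleles with CRISPR/Cas9, and wild-type (WT) clones retained the gene. According to the study, the WT clones had also received CRISPR/Cas9 and were cloned in the same way, so that they are not the parental lines. Each genotype of each line was represented by 2 cell clones, sequenced in rounds A and B, which gave 4 libraries per line and genotype and 24 in all. In HT29, clones 11 and 40 were WT while 28 and 38 were KO. In HCT116, clones 4 and 6 were WT while 44 and 47 were KO. In SW480, clones 4 and 5 were WT while 17 and 21 were KO. KO 28A stands for round A of KO clone 28, and likewise for the others. The rounds of a clone share that clone, so that p-values measure the spread between these libraries and not between independent clones.

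The values are normalized counts (reads on a gene after scaling each library by its size factor), and the libraries held 22297049 to 29068378 gene reads. *CTNNB1* lay at 5883 to 6113 in the WT and 257 to 337 in the KO libraries of HT29. The corresponding ranges were 10512 to 12800 and 187 to 255 in HCT116 and 43114 to 50940 and 839 to 1312 in SW480, so that no library went against its label. The rounds of HT29 KO 38 stood apart, with an SD of 0.93 for their log2 differences across genes against 0.36 to 0.53 in the other 11 clones. Fold changes of members in HT29 are given with and without KO 38B. In HCT116, KO 47A stood apart by the number of gene identifiers with at least 1 read, 35449 against 20256 to 24944 in the other 23 libraries, and its part in the HCT116 results is given by values without it. Of the 7 epithelial markers, 5 to 7 per group averaged at least 10, with all 7 in HT29 KO alone. *KRT20* was at 0 in SW480 KO and *EPCAM* was lowest in the SW480 libraries, at 645 to 2110. Of the 7 immune, fibroblast and endothelial markers found in the files, 1 to 3 per group averaged at least 10. The pan-leukocyte marker *PTPRC* never exceeded 4.3, the macrophage marker *CD68* never exceeded 2.8 and the immune marker *CD3E* never exceeded 6.8. *COL1A1* ran up to 438 in HCT116, *COL1A2* up to 122 in SW480 WT and *VWF* up to 234 in SW480 KO. The part of these genes in the results below was not tested. In bulk RNA a lower share of expressing cells and less RNA per cell cannot be told apart.

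On chromosome 20 of GRCh37, *CST3* (23607343 to 23619110), *CST4* (23666277 to 23669675), *CST1* (23728199 to 23731905), *CST2* (23804406 to 23807366) and *CST5* (23856571 to 23860385) lie side by side on the minus strand. *CST7* lies further along on the plus strand (24929905 to 24940564). *CST6* is on chromosome 11 (65779479 to 65780976, plus strand), *CSTA* on chromosome 3 (122044095 to 122060816, plus strand) and *CSTB* on chromosome 21 (45192392 to 45196211, minus strand). The principal transcript of each member has 3 exons, except for *CST7* with 4. No other annotated gene overlaps these loci except an unnamed gene on the same strand within *CST3*, with a mean of 7.13 against 7077 for *CST3*.

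Because the salivary cystatins arose by duplication, their reads can be confused. The coding sequences of *CST1* and *CST4* are 92.7% identical over 423 bases, those of *CST2* and *CST4* 92.4% and those of *CST1* and *CST2* 91.3%. *CST5* is 73.0% and *CST3* 71.5% identical to *CST4*. The first 120 coding bases of *CST4* and *CST2* are shown because this is where the pair differs most within the first coding exon. They lie in exonic, protein-coding sequence on the minus strand of GRCh37, at chr20:23669487-23669606 for *CST4* and chr20:23807178-23807297 for *CST2*. Capitals mark the 17 positions at which they differ.
CST4: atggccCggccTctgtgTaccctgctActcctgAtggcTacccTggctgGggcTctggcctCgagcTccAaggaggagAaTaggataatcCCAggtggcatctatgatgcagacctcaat
CST2: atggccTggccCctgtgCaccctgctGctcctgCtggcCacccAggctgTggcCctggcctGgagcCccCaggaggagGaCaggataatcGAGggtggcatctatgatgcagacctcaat
The reads were 150 bases long. Of the 600 windows of 150 bases in the *CST4* transcript, 3 (0.5%) also occur in *CST1*, and none of them occurs in *CST2*. How the counting treated reads with more than one alignment is not given in the sources used here, so that how these genes shared reads is uncertain, most of all for *CST2*, which is the lowest of the trio.

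In HT29, *CST4* was close to absent with β-CATENIN and abundant without it. It measured 3.8 in WT 11A, 3.0 in WT 40A and 0 in WT 11B and WT 40B, which amounts to 7 reads over the 4 WT libraries. It measured 1565 in KO 28A, 869 in KO 28B, 1344 in KO 38A and 2102 in KO 38B, or 5482 reads in all. Both KO clones were thus high and both WT clones were near 0. The mean was 1.70 ± 1.997 (SD, n = 4) in WT and 1470 ± 512 (SD, n = 4) in KO, a ratio of 783 with a 95% counting interval of 380 to 1947. Such intervals take in counting error alone, because reads without molecular identifiers are not independent molecules. On the log2 scale the fold change was 9.39 with a pseudocount of 1, 11.21 with 0.1 and 7.76 with 5. Without KO 38B, fewer than 4 libraries reached the minimum of 10 that the fit required.

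*CST1* showed the same order in HT29 but with a different starting level in each WT clone. It measured 2.9 and 15.2 in WT 11A and WT 11B and 200.6 and 113 in WT 40A and WT 40B. In the KO libraries it measured 4104 in KO 28A, 2531 in KO 28B, 4705 in KO 38A and 6871 in KO 38B. All KO libraries lay above all WT libraries, and the ratio was 54.4 over both WT clones. Against WT 11 alone KO 28 was 373-fold and KO 38 633-fold higher, whereas against WT 40 alone the ratios were 20.4 and 34.7. The log2 fold change of 6.95 was 9.08 without WT 40, 4.82 without WT 11 and 6.72 without KO 38B. Between the WT clones themselves *CST1* was 18.2-fold higher in WT 40, with a 95% counting interval of 11.3 to 31.2. Of *CST3*, *CST6* and *CSTB*, which were tested between WT 40 and WT 11, limma called 0, with 0 at an unadjusted p under 0.05 and 0 in DESeq2 and edgeR, where 7.58% of all genes were called. Called genes had an adjusted p under 0.05 and an absolute log2 fold change over 1.

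*CST2* stayed low in HT29. It was at 0 in 3 WT libraries and at 1.0 in WT 40A, which is 1 read. The KO libraries held 26.2 and 17.6 in clone 28 and 9.5 and 3.9 in clone 38. The ratio was 57.0 with a 95% counting interval of 9.82 to 2288, and it rests on 57 reads against 1 read. In contrast to *CST1* and *CST4*, whose higher KO clone by mean was 38, *CST2* was higher in KO 28. *CST5* was at 0 in all 8 HT29 libraries, which allows up to 3 reads over the 4 libraries of each genotype.

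**Figure D1:**
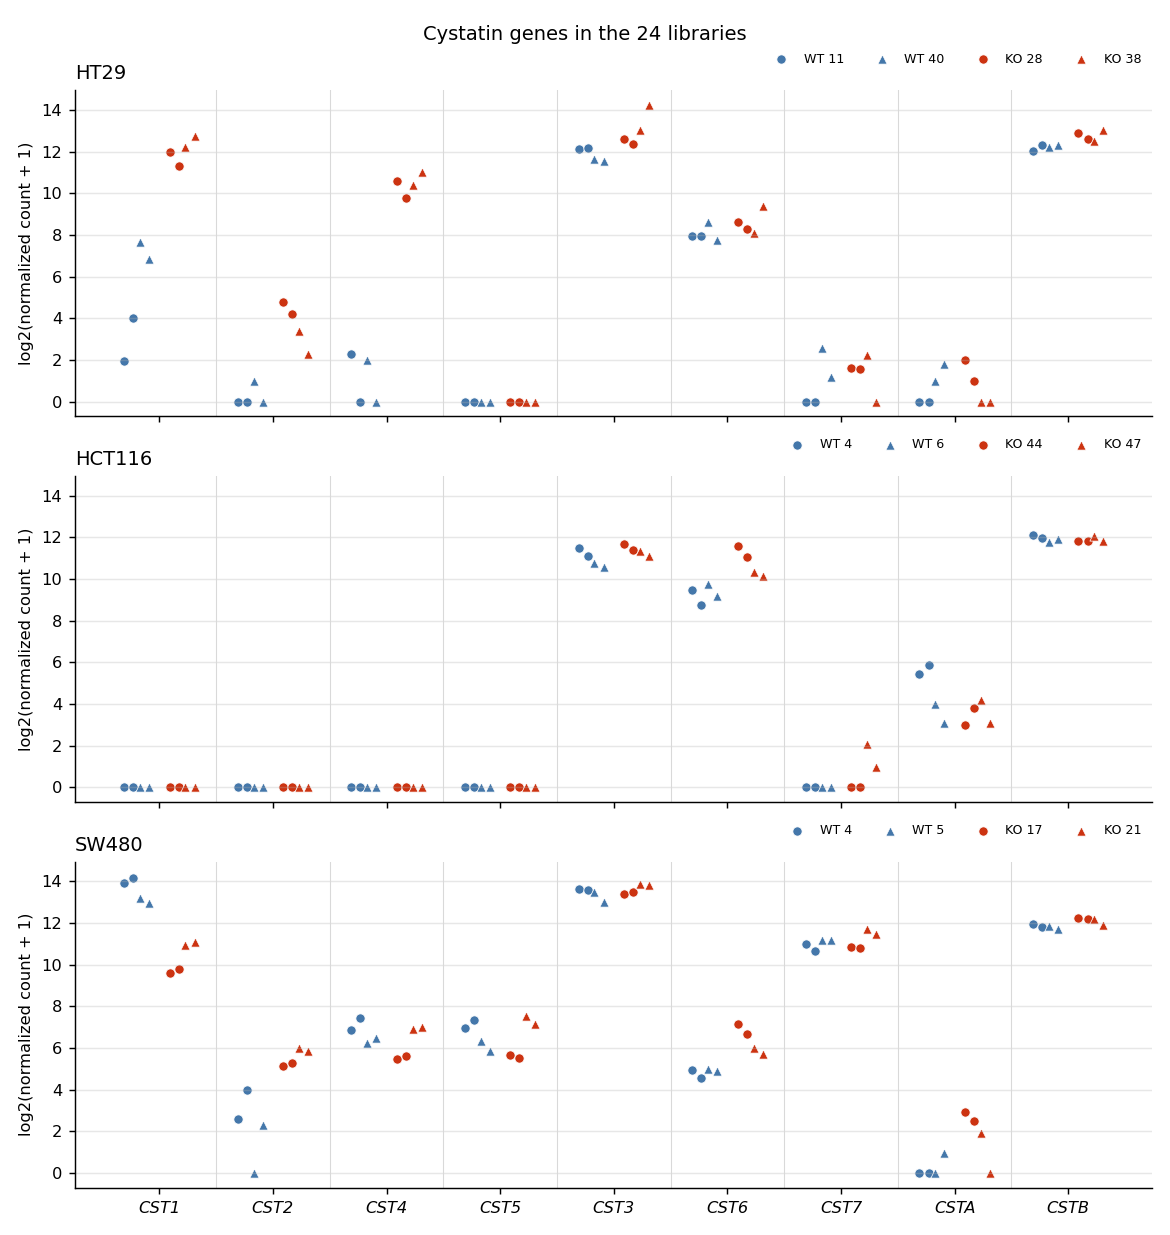
The plot of levels by library gives log2 of the normalized count plus 1 for each of the 9 cystatin genes on the horizontal axis, with 1 panel per line, WT libraries in blue, KO libraries in red and the clones of a genotype as circles and triangles. *CST1* and *CST4* sit far above the WT libraries in all 4 HT29 KO libraries, all 8 HCT116 libraries are at 0 for *CST1*, *CST2*, *CST4* and *CST5*, and the 4 SW480 KO libraries lie below the WT libraries for *CST1*.

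The remaining cystatin genes with enough reads in HT29 were *CST3*, *CST6* and *CSTB*, and none of these 3 was called by limma (2.30% of the 14921 genes tested were called). At an unadjusted p under 0.05 there were 2, *CST3* and *CSTB*. DESeq2 called 1, *CST3*, and edgeR called 0. *CST3* measured 4446, 4686, 3198 and 2999 in WT 11A, WT 11B, WT 40A and WT 40B. It measured 6218 and 5223 in KO 28A and KO 28B, 8265 in KO 38A and 19182 in KO 38B. All KO libraries were above all WT libraries, yet the spread among them was wide, and the log2 fold change was 1.17 ± 0.38 (SE; limma, adjusted p = 0.167). Without KO 38B it was 0.78 (adjusted p = 0.119), without clone KO 28 it was 1.74 (adjusted p = 0.0452), and in DESeq2 it was 1.31 (adjusted p = 0.0267). *CSTB* lay at 4199 to 5156 in WT and 5774 to 8375 in KO libraries, also without overlap, at a log2 fold change of 0.53 ± 0.16 (limma, adjusted p = 0.139), which was 0.44 without KO 38B. *CST6* overlapped between the genotypes, at 217 to 389 in WT and 272 to 679 in KO libraries (log2 fold change 0.53 ± 0.32, adjusted p = 0.440). Without KO 38B the *CST6* value was 0.26 (adjusted p = 0.631). *CST7* had 6 reads in WT and 8 in KO libraries, and *CSTA* 3 and 4.

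The same 3 genes were compared between the KO clones of HT29, and none was called between KO 38 and KO 28 by limma (12.5% of all genes were called). At an unadjusted p under 0.05 there was 1, *CST3* (log2 difference 1.14 ± 0.35, adjusted p = 0.0614), and DESeq2 and edgeR each called 1. By reads, *CST4* was 1.37-fold and *CST1* 1.7-fold higher in KO 38 than in KO 28, and the *CST4* libraries of the clones overlapped.

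In HCT116, no read of *CST1*, *CST2*, *CST4* or *CST5* was counted in any of the 8 libraries. With 112882952 reads over the WT and 108176653 over the KO libraries, at most 3 reads over the 4 libraries of a genotype are allowed for each gene. A fall upon loss of *CTNNB1* was therefore not detectable in HCT116. A rise beyond that limit was measurable at this depth, and none was seen. *CST7* was at 0 in WT libraries and at 4 reads over the KO libraries, 3 of them in KO 47A, the library with the most genes detected, and 1 in KO 47B.

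The 1 cystatin gene called in HCT116 was *CST6*, out of 4 tested (5.06% of all genes were called). It measured 712 in WT 4A, 436 in WT 4B, 860 in WT 6A and 576 in WT 6B. It measured 3040 in KO 44A, 2088 in KO 44B, 1287 in KO 47A and 1114 in KO 47B. Every KO library exceeded every WT library, and clone 44 was the higher KO clone. The log2 fold change was 1.47 ± 0.32 (limma, adjusted p = 0.0158), it was 1.61 without KO 47A (adjusted p = 0.0190), and with the round as a block, which pairs the HCT116 libraries, it was 1.47 ± 0.30 (adjusted p = 0.0156). The call was lost without clone KO 44, when the log2 fold change was 0.93 (adjusted p = 0.0459), without WT 4 (1.30, adjusted p = 0.0830), without WT 6 (1.64, adjusted p = 0.0538) and without the library WT 6B (1.43, adjusted p = 0.0504). It was also lost when the rounds of each clone were averaged (1.47, adjusted p = 0.162). Between the KO clones, 1 of the 4 genes was called, *CST6*, where 3.28% of all genes were called. It was lower in KO 47 by −1.07 ± 0.27 on the log2 scale (limma, adjusted p = 0.0399). With the round as a block this was −1.07 ± 0.12 (limma, adjusted p = 1.0e-05).

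*CSTA*, which is abundant in squamous epithelium, was present at low level in HCT116 and near absence elsewhere. It measured 43.1 and 57.5 in WT 4A and WT 4B, 14.8 and 7.6 in WT 6A and WT 6B, and 6.9 to 17.1 in the KO libraries. The KO libraries thus overlapped with WT 6 and lay below WT 4. The log2 fold change of −1.08 ± 0.58 did not pass the test (limma, adjusted p = 0.236), and it was −2.15 (adjusted p = 0.0241) without clone WT 6 and −1.30 (adjusted p = 0.209) without KO 47A. Between the WT clones, where 1.44% of all genes were called, limma called 0 of 4 cystatin genes, with 2 at an unadjusted p under 0.05 and 0 in DESeq2 and edgeR. With the round as a block, *CSTA* was called as lower in WT 6 (−2.12 ± 0.51, adjusted p = 0.0108). *CST3* lay at 1532 to 2842 in WT and 2218 to 3303 in KO libraries (log2 fold change 0.41 ± 0.19, adjusted p = 0.166, and 0.42 without KO 47A). *CSTB*, at 3536 to 4432 in WT and 3639 to 4312 in KO libraries, differed by −0.05 with a 95% interval of −0.28 to 0.17, and by −0.11 without KO 47A.

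SW480 was the line in which all salivary cystatins were measurable in WT clones, and the members moved in different directions. Of the 8 genes tested, limma called 3, *CST2* and *CST6* as higher and *CST1* as lower in KO, where 17.5% of all 16325 genes tested were called. The filter kept 8 of the 9 members, since *CSTA* had 1 read in WT and 15 in KO libraries. *CST2* passed it through the KO libraries, as 1 WT library reached 10, so that its entry into the count depended on the group in which it was high.

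*CST1* was the most abundant member per length in SW480 WT and fell in KO. It measured 15371 and 18165 in WT 4A and WT 4B and 9288 and 8093 in WT 5A and WT 5B. It measured 774 and 894 in KO 17A and KO 17B and 1958 and 2165 in KO 21A and KO 21B. The highest KO library stayed below the lowest WT library, and the ratio of KO to WT was 0.113. Its log2 fold change was −3.20 ± 0.40 (limma, adjusted p = 2.1e-04). It ran from −3.85 to −2.55 over 22 alternatives, with an adjusted p of at most 0.0117 in each. Its direction was opposite to the direction described for HT29.

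*CST2* rose in SW480 KO clones, although its level was low. It measured 5.1 and 14.7 in WT 4A and WT 4B, 0 in WT 5A and 3.9 in WT 5B. It measured 34.8 and 37.6 in KO 17A and KO 17B and 63.5 and 57.6 in KO 21A and KO 21B. The genotypes did not overlap, at 25 reads against 206, a ratio of 7.99 with a 95% counting interval of 5.26 to 12.6. This gave a log2 fold change of 3.36 ± 0.70 (limma, adjusted p = 0.00293). The gene had passed the filter through the KO libraries, so that this value is a description. The near-identical *CST1* was at 774 to 2165 in the same KO libraries and at 8093 to 18165 in the WT libraries, in which *CST2* was lowest.

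*CST4* and *CST5* did not pass the test between genotypes in SW480, and their clones differed. *CST4* measured 117 and 175 in WT 4A and WT 4B, 74.3 and 87.1 in WT 5A and WT 5B, 43.3 and 47.7 in KO 17A and KO 17B, and 118 and 127 in KO 21A and KO 21B. KO 17 lay below all WT libraries, whereas KO 21 lay within their range. Between genotypes the log2 fold change was −0.52 ± 0.40 (limma, adjusted p = 0.312, 95% interval −1.41 to 0.38). It was −1.22 without KO 21 (adjusted p = 0.0105) and 0.18 without KO 17 (adjusted p = 0.647). *CST5* measured 124 and 161 in WT 4A and WT 4B, 79.2 and 56.8 in WT 5A and WT 5B, 49.9 and 45.0 in KO 17A and KO 17B, and 187 and 140 in KO 21A and KO 21B. The mean was 105 in either genotype, and the log2 fold change was −0.15 with a 95% interval of −1.27 to 0.96.

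Between KO 21 and KO 17, 4 of 8 cystatin genes were called, against 4.61% of all genes. *CST5* was higher in KO 21 by 1.75 ± 0.23 (log2; limma, adjusted p = 4.4e-05), *CST4* by 1.41 ± 0.22 (adjusted p = 2.2e-04) and *CST1* by 1.31 ± 0.10 (adjusted p = 4.9e-07), and *CST6* was lower by −1.06 ± 0.28 (adjusted p = 0.00888). Between WT 5 and WT 4, 1 of 8 was called, against 1.97% of all genes, namely *CST5* at −1.07 ± 0.23 (adjusted p = 0.00679). *CST1* (−0.95) and *CST4* (−0.82) differed in the same direction with adjusted p of 3.4e-05 and 0.0281, below the fold required for a call. The error of these contrasts comes from rounds alone.

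The amount of *CST1* relative to *CST4* within a library differed between the SW480 genotypes. Per length, there were 131, 104, 125 and 92.9 *CST1* reads for each *CST4* read in SW480 WT 4A, WT 4B, WT 5A and WT 5B. In KO 17A, KO 17B, KO 21A and KO 21B there were 17.9, 18.7, 16.6 and 17.1. The KO values were all below the WT values, with a log2 difference of −2.68. This value restates the difference between the fold changes of the pair. For *CST2* there were 0.456 to 0.808 reads for each *CST4* read in KO and 0 to 0.0846 in WT libraries, in the opposite direction. For *CST5* the values overlapped, at 0.935 to 1.58 in KO and 0.647 to 1.06 in WT libraries. In HT29 KO libraries the *CST1* measure was 2.62, 2.91, 3.5 and 3.27, as a description.

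**Figure D2:**
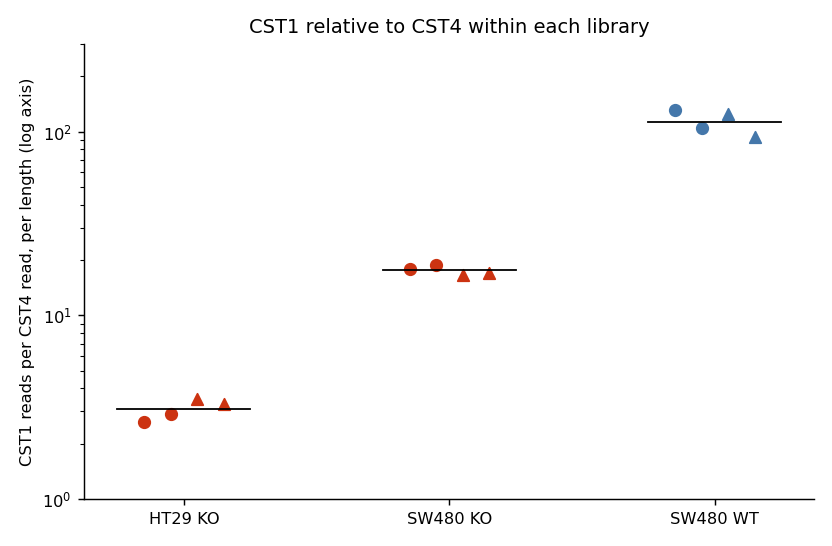
The plot of *CST1* relative to *CST4* gives on a log axis the number of *CST1* reads for each *CST4* read, per transcript length, in HT29 KO, SW480 KO and SW480 WT libraries, with circles and triangles for the clones of a group and a line at the mean of 4 libraries. The groups occupy separate bands around 3.08, 17.6 and 113, and the clones of a group overlap in SW480 WT only.

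*CST6* was the member called in the same direction in more than 1 line. In SW480 it measured 30.3, 23.0, 30.9 and 28.4 in WT 4A, WT 4B, WT 5A and WT 5B. It measured 143 and 102 in KO 17A and KO 17B and 63.5 and 51.8 in KO 21A and KO 21B. No KO library overlapped a WT library, and the log2 fold change was 1.54 ± 0.30 (limma, adjusted p = 0.00177), with calls in all 22 alternatives at 1.01 to 2.07. The increase thus stood at 1.47 in HCT116 and 1.54 in SW480 on the log2 scale, and the difference between them was −0.07 with a 95% interval of −1.06 to 0.92. *CST7* was high in SW480 in both genotypes, at 1615 to 2349 in WT libraries, 1827 and 1762 in KO 17A and KO 17B and 3404 and 2857 in KO 21A and KO 21B (log2 fold change 0.21 ± 0.22, adjusted p = 0.464). *CST3* lay at 8183 to 12802 in WT and 10607 to 15069 in KO libraries (0.22 ± 0.16, adjusted p = 0.280). *CSTB* was higher in KO by 0.30 ± 0.09 (adjusted p = 0.0181), which is below the fold required for a call.

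**Figure D3:**
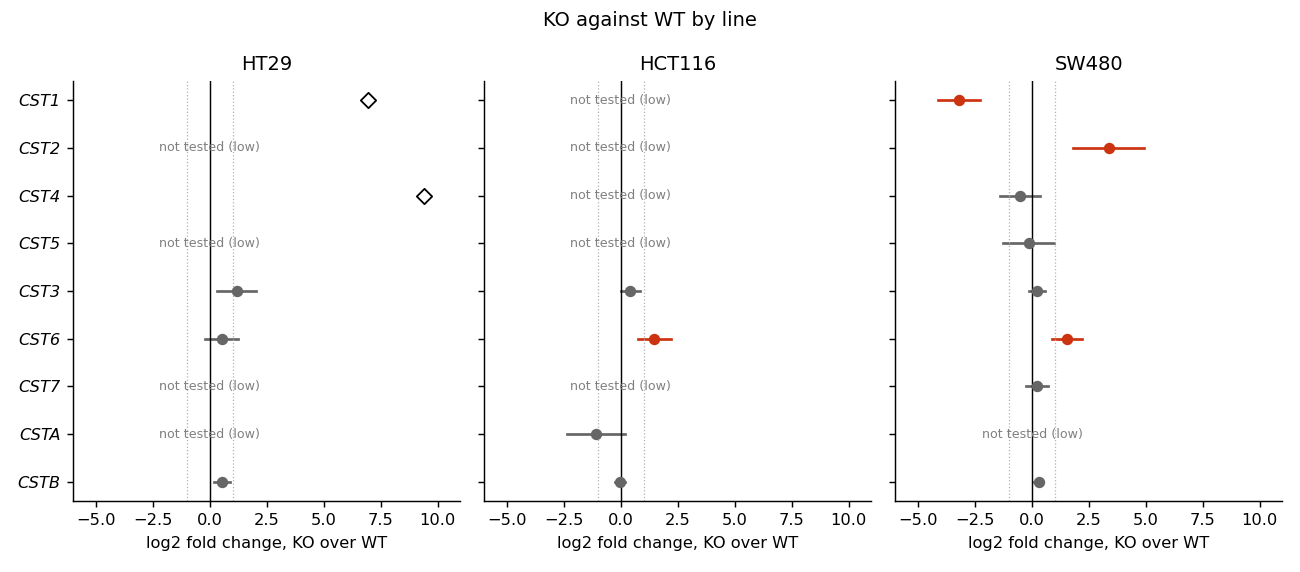
The plot of fold changes gives the log2 fold change of KO over WT for each cystatin gene and line with its 95% interval from limma, with called genes in red, genes not called in grey, and dotted lines at the fold required for a call. Genes with too few reads are written as not tested, and open diamonds are the HT29 values of *CST1* and *CST4*, 6.95 and 9.39, which are shown without an interval because *CST4* was chosen on this contrast. *CST1* is at −3.20 in SW480, and *CST6* is red in HCT116 and SW480. *CST2*, red at 3.36 in SW480, had passed the filter through the KO libraries and is a description.

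Whether the KO effect itself differed between lines could be tested for *CST3*, *CST6* and *CSTB*, the members with enough reads in each line. None of the 3 was called by limma between HT29 and HCT116 (5.39% of all genes were called), between HT29 and SW480 (12.3%) or between HCT116 and SW480 (10.0%). At an unadjusted p under 0.05 there were 1, 2 and 1 of them, and DESeq2 and edgeR called 0 in each case. *CSTB* had an adjusted p of 0.0336 between HT29 and HCT116 at a difference of 0.59, below the fold required. The *CST6* effects differed by −0.94 (95% interval −1.93 to 0.05) between HT29 and HCT116 and by −1.01 (−2.003 to −0.02, adjusted p = 0.169) between HT29 and SW480. These comparisons share the libraries of a line.

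The WT clones of the lines were also compared with each other. HT29 WT and HCT116 WT differed in 2 of the 6 members tested (37.3% of all genes were called), with *CST6* and *CSTA* lower in HT29. HT29 WT and SW480 WT differed in 4 of 6 (40.0%), with *CST6* higher and *CST3*, *CST5* and *CST7* lower in HT29. HCT116 WT and SW480 WT differed in 8 of 9 (39.9%), *CSTB* being the exception at a log2 difference of 0.12 (95% interval −0.13 to 0.36). Members that were absent from one or both lines of a pair had passed the filter through other libraries, so that these counts are a description. *CST5*, with 0 reads in HT29 WT and HCT116 WT, could show no difference between those lines.

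*CST7* was counted with 8551 reads in SW480 WT libraries, 6 in HT29 WT and 0 in HCT116 WT. The level was at least 2964-fold lower in HCT116 than in SW480, against a floor of 3 reads over the group. For *CST1* the corresponding bound was 18330-fold, for *CST4* 164-fold and for *CST5* 152-fold. In the opposite direction, *CST6* was 23.1-fold higher in HCT116 WT than in SW480 WT and 9.91-fold higher in HT29 WT than in SW480 WT. *CST3* was 2075 ± 583 in HCT116, 3832 ± 857 in HT29 and 11190 ± 2058 in SW480 WT (SD, n = 4 each).

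Per kilobase of principal transcript, *CSTB* led in HT29 WT (mean 8202), HCT116 WT (6748) and HCT116 KO (6497), and *CST3* followed in all 3 groups without overlap of their libraries. In SW480 WT the leading pair was *CST1* (16990) and *CST3* (14110), whose libraries overlapped, and in SW480 KO *CST3* led (16310). In HT29 KO, *CST3* (12260) and *CSTB* (11940) overlapped. *CST3* reached 24190 in KO 38B and lay at 6587 to 10420 in the other 3 libraries, beside 9819 to 14240 for *CSTB*. They were followed by *CST1* (6079) and *CST4* (1962), which in HT29 WT stood at 111 and 2.27. The lowest means were those of *CST5* in HT29 and *CSTA* in SW480. This order uses the length of 1 transcript per gene. Over all annotated exons, *CST1* leads in HT29 KO and *CST6* in HCT116, as the exons of *CST3* and *CSTB* then add up to 3615 and 3820 bases.

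**Figure D4:**
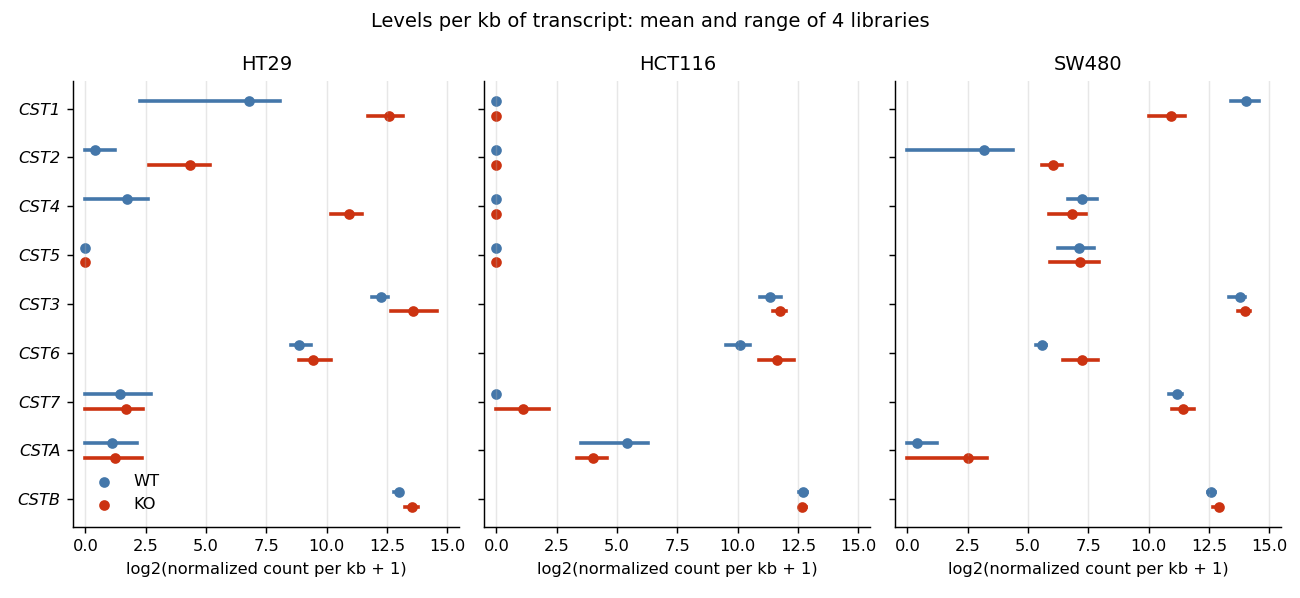
The plot of levels per kb gives log2 of the normalized count per kilobase of transcript plus 1 on the horizontal axis for each cystatin gene, with 1 panel per line, points at the mean and bars from the lowest to the highest of 4 libraries, WT in blue and KO in red. *CSTB* and *CST3* are high in all lines, *CST7* is high in SW480 alone, and *CST1* runs from 0 in HCT116 to 16990 per kilobase in SW480 WT.

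The proteases that cystatins inhibit were described from a list of 12 genes, the cysteine cathepsins and legumain. In HT29 1 of 10 tested rose, in HCT116 limma called 0 of 8 (1 at an unadjusted p under 0.05, and 0 in DESeq2 and edgeR), and in SW480 3 of 10 rose and none fell, beside 2.30%, 5.06% and 17.5% of all genes called in either direction. Their median log2 fold changes were −0.12, 0.12 and 0.11, beside 0.03, −0.01 and −0.00 over all genes. *CTSL*, a lysosomal endopeptidase, rose in HT29 from 219 to 279 in WT to 495 to 1075 in KO libraries (log2 fold change 1.5 ± 0.25, adjusted p = 0.0188). In SW480 it rose from 1135 to 1588 to 2109 to 3346 (1.01 ± 0.17, adjusted p = 7.2e-04). *CTSS*, which acts in antigen presentation, rose in SW480 from 16.5 to 78.2 in WT to 648 to 888 in KO libraries (4.12 ± 0.39, adjusted p = 1.7e-05). The third gene of the SW480 count was *CTSW*, a cathepsin of cytotoxic lymphocytes with a mean under 100. It was named after its values were seen and measured 1.0 to 6.4 in WT and 102.7 to 165.5 in KO libraries. *CTSW* reached 10 in KO libraries only, the group in which it was high. Its value and its place in the count of 3 are therefore a description. In HT29 no gene of the list was called in 6 of the 8 fits that left out 1 library. In SW480, 6 of 8 such fits called fewer than 3, and 1 was called without KO 21A or without KO 21B.

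Genes around the cluster were not called. Of 9 genes flanking the cystatins on chromosome 20, 5 were tested per line and limma called 0 in each, as did DESeq2 and edgeR, with 0, 0 and 4 at an unadjusted p under 0.05 in HT29, HCT116 and SW480. Their median log2 fold changes were −0.06, −0.01 and −0.12. Among 9 other genes with a cystatin domain, 1 had enough reads, *CST9* of the same cluster, in SW480. It measured 1.0 to 7.5 in KO and 11.7 to 29.4 in WT libraries, and it was named after its values were seen. It passed the filter through the WT libraries alone, so that its difference is given as a description. Among 5 other inhibitors of cysteine proteases, 1, 2 and 2 were tested in HT29, HCT116 and SW480 and limma called 0, with 0, 1 and 2 at an unadjusted p under 0.05 and 0 in DESeq2 and edgeR.

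Since *CST6* and *CSTA* belong to the cornified envelope programme, 13 envelope genes were followed. In HT29 2 of 8 tested rose, in HCT116 1 of 4 rose, and in SW480 2 of 4 rose and 2 fell, beside the same 2.30%, 5.06% and 17.5% of all genes. The HT29 count was 1 in 7 of the 8 fits that left out 1 library. The medians were 0.61, 0.13 and 0.02. In HT29 *SPRR1B*, a small proline-rich envelope precursor, rose in KO libraries (4.91 ± 0.46, limma, adjusted p = 0.00109). It lay at 10.0 to 19.3 in WT and 272 to 1036 in KO libraries. *SPRR1A*, which was named after its values were seen, measured 0 to 7.1 in WT and 28.5 to 66.4 in KO libraries. It reached 10 in KO libraries only, so that its value and its place in the HT29 count of 2 are a description. The linker gene *PPL* rose in HCT116 (1.58 ± 0.21, adjusted p = 6.5e-04) and in SW480 (2.79 ± 0.13, adjusted p = 1.2e-07). In SW480 *EVPL*, its partner, rose (1.13 ± 0.09, adjusted p = 4.9e-06), and the desmosomal *DSP* fell (−1.09 ± 0.08, adjusted p = 1.6e-06). *TGM1*, which crosslinks the envelope and was named after its values were seen, also fell in SW480 (−1.37 ± 0.39, adjusted p = 0.0141).

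Among 16 further genes of saliva and tears, 1 was tested in HT29 and 1 in HCT116, and neither was called by limma, although both had an unadjusted p under 0.05. DESeq2 and edgeR each called 1 gene of the list in HCT116 and 0 in HT29. In SW480 2 passed the filter, *LCN1*, which codes for tear lipocalin (0 to 1.0 in WT and 15.6 to 69.1 in KO libraries), and *ZG16B* (2.0 to 4.8 and 30.3 to 54.2). Both reached 10 in KO libraries only, so that they entered the test through the group in which they were high, and they are given as a description. They were named after their values were seen.

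Of the epithelial markers, *KRT20* rose in HT29 KO (2.34 ± 0.46, limma, adjusted p = 0.0361). In HCT116 *KRT20* measured 58.2 to 103.7 in WT and 0 to 1.0 in KO libraries. There it passed the filter through the WT libraries alone, so that this fall is a description. *CDH1* rose in HCT116 KO (1.17 ± 0.13, limma, adjusted p = 2.0e-04). In SW480 the intestinal transcription factor gene *CDX2* fell (−3.49 ± 0.36, adjusted p = 3.8e-05). Among markers of other cells, limma called 0 of 1 tested in HT29 and 0 of 1 in HCT116 (1 and 0 at an unadjusted p under 0.05), whereas in SW480 *VWF* rose and *COL1A2* fell, the latter having passed the filter through the WT libraries alone.

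Across the 24 libraries the gene whose log2 values followed *CST4* most closely was *IRX5*, an Iroquois homeobox gene (Pearson r = 0.946), of 18608 genes compared. It was followed by *YPEL3* (0.910), *TMEM92* (0.903), *TM4SF5* (0.901) and *TMEM86A* (0.899). *IRX5* ran from 36.6 to 58.6 in HT29 WT, from 144 to 390 in HT29 KO, from 19.0 to 35.4 in HCT116 and from 88.3 to 144 in SW480 libraries. *CST1* was in place 8 (0.892), *CST3* in place 80 (0.816) and *CST2* in place 218 (0.768). At the other end *CST6* (−0.524) and *CSTA* (−0.620) ran against *CST4*. The points share cell lines, clones and the HT29 KO libraries on which *CST4* was chosen, so that these values are a description.

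Promoter sequences in the reference table (RefSeq, GRCh38.p14, 300 bases around the start) were held for 2 of the 9 genes, *CST3* and *CST5*. On neither strand was there a match to the TCF/LEF core motif CTTTGAT, found in 2.6% of the 35116 promoters in the table, or to its variants CTTTGTT (5.2%), CTTTGAA (4.4%) and CTTTGTA (2.8%). At least 1 of these occurs in 13.8% of the promoters. The TATA box core TATAAA, found in 11.5%, was not matched either. No match says only that these letters are not in these windows.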

How the data were processed

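RNA of 24 libraries had been prepared with the TruSeq RNA kit and sequenced as paired 150-base reads. According to the submitters' processing notes, reads were aligned to GRCh37 with STAR 2.7.5b and counted with featureCounts 2.0.1, and DESeq2 2.11.40.6 was used. The deposited values per library are signal, namely reads on each gene after scaling by the size factor of the library. Count tests were run on the recovered reads as alternatives only. The authors' tables per line, which hold mean values, log2 fold changes, p-values and adjusted p-values, were not used. The strand setting, the handling of multiply aligned reads and the annotation release of the counting are not given in the sources used here. Dividing by the value of 1 read gave whole reads (within 0.1 read) for 100% of values in each library.

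Symbols, positions and lengths came from GENCODE on GRCh37, and 95.8% of identifiers had a symbol. Values were tested as log2 of the value plus 1 with limma 3.58.1 (trend, robust variances), on genes with at least 10 in at least 4 libraries of a line, or of all 24 for differences between lines. Called genes had an adjusted p (Benjamini-Hochberg, over all genes tested) under 0.05 and an absolute log2 fold change over 1. Fold changes on this scale understate the change of low genes. Rounds of a clone share that clone, and the study describes the rounds as independent. Rounds paired the libraries in HCT116 (correlations of round differences between clones 0.182 to 0.374, 6 of 6 over 0.1) but not in HT29 (2 of 6) or SW480 (1 of 6). Intervals for reads are exact, at 95%.

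The members, the 9 gene lists and the rules for named genes were chosen with earlier results of these data known. Named genes were the members, *CTNNB1*, per list and line up to 3 called genes with the largest fold change and a mean of at least 100, and the 5 genes most correlated with *CST4*. Alternatives were pseudocounts of 0.1 and 5, lower filters, TMM, DESeq2 1.42.0, edgeR 4.0.16, the round as a block, the clone as a random effect, averaged rounds, and each library and clone left out. Tests were run on simulated data first. R 4.3.3, Python 3.11.15, scipy 1.17.1, Biopython 1.88 and matplotlib 3.10.9 were used. Of the members' sequences, a stretch of 2 is shown, and 1 further result is not reported here.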

Additional observations from a re-analysis of the deposited data

Results flagged for a closer look

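*CST1* moved in opposite directions in 2 lines. All 4 HT29 KO libraries lay above all WT libraries (log2 fold change 6.95), and all 4 SW480 KO libraries lay below all WT libraries (−3.20), a difference of 10.15 on the log2 scale that was not tested because HT29 values chose the family.

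Among 38 sets of 4 libraries with enough reads, 1 held a library far from the rest. Chance alone gives about 1 in 20 for 4 independent values. Each set holds 2 rounds of 2 clones, so that this rate need not hold here. For *CSTB* in HCT116 KO, KO 47A measured 4312 while the other 3 libraries ran from 3639 to 3668. KO 47A is also the library with 35449 gene identifiers above 0, against 20256 to 24944 in the other 23, and the part of this in the *CSTB* value was not tested.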

How the results depend on the processing

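The SW480 calls of *CST1* and *CST6* kept their direction and their call under all 22 alternatives. *CST2* kept its own in the 20 that gave a value, and none could be had without KO 17 or without KO 21. Because *CST2* had passed the filter through the KO libraries, its call is a description. The count of all genes called in HT29 depended most on the fit. It was 343, and 784 in DESeq2, 217 with the round as a replicate block, 121 with the clone as a random effect and 0 with averaged rounds, and it ran from 115 to 583 when a library or clone was left out. Members called in HT29 were 1 in DESeq2 and 0 to 1 over these omissions, with 1 without clone KO 28. In HCT116, averaged rounds gave 358 genes and 0 members, and omissions gave 0 to 1 members. The difference of KO effects between HT29 and SW480 gave 0 to 1 members, with 1 without KO 28B. Between HT29 KO clones, 1 member was called with no filter, in DESeq2 and in edgeR. Between HCT116 WT clones, 1 was called with a pseudocount of 5, with no filter and with the replicate block. Between SW480 WT clones, 2 were called with no filter and with the replicate block, and the block changed no other count of members. Values not called that changed sign when a library or clone was left out were *CSTB* in HCT116 (−0.148 to 0.0397), and in SW480 *CST4* (−1.22 to 0.18), *CST5* (−1.03 to 0.73) and *CST7* (−0.19 to 0.60). The cause was not tested. Depth limits *CST2*, *CSTA* and HT29 WT *CST4*, which rest on a few reads.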
